A study of Mus musculus with 24 samples.

Results

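The liver response to heat shock (HS) was followed in PPARα-null mice on a diet with WY, by setting 3 null WY+HS livers (mice 22, 23 and 24) against 3 null WY livers (mice 19, 20 and 21). These 6 livers were chosen by their sample titles from the 24 of the series, and all 12422 probe sets other than the array's AFFX controls were tested. WY (Wyeth-14,643) is a peroxisome proliferator and an agonist of PPARα, the nuclear receptor that switches on hepatic fatty acid oxidation genes during fasting. All mice were males of 9 to 12 weeks, wild-type or PPARα-null in every tissue, on a mixed SV129 and C57BL/6 background, and each gave 1 Affymetrix Murine Genome U74Av2 array. Both groups compared here carried the null allele and were fed WY at 500 ppm for 1 week. The null WY+HS mice were then warmed for 40 min, at 42 °C in a chamber that by the labels could become slightly warmer, while the null WY mice stayed at room temperature. Livers were taken 4 h after the heat, a time given by the methods, while the labels list later times as well. For comparison the series also holds null HS and null control livers on the control diet, and wild-type WY+HS, WY, HS and control livers, each from 3 mice. Because the strain lacks the receptor in every cell from birth, and both groups ate WY, the comparison gives the heat response of a null liver under WY and does not measure the diet itself.

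HS unfolds proteins in the cytosol, nucleus and mitochondria. Unfolded proteins draw chaperones away from HS factor 1 (HSF1), which then forms trimers and binds HS elements, arrays of inverted nGAAn units, in the promoters of chaperone genes. The products include the Hsp70 and Hsp90 machines, their J-domain and nucleotide exchange partners, the mitochondrial chaperonin and the collagen chaperone of the endoplasmic reticulum. In liver, which makes most plasma proteins, several of these are already abundant without heat.

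Promoters of chaperone genes that hold a match are shown first, because the values of chaperone genes are described below. In the 250 bases before the start of each gene in RefSeq (mouse build GRCm38.p6), both strands were searched for 3 adjoining units (GAANNTTCNNGAA or TTCNNGAANNTTC) and for 2 units (GAANNTTC or TTCNNGAA), so that every match to the longer motif also holds the shorter one. The stretches below are written 5′ to 3′ on the strand of the gene, with the matched bases in capitals. *Hspd1* and *Hspe1*, the subunits of the mitochondrial chaperonin, lie head to head and share 1 block of overlapping matches, which is shown once for each strand. *Hsph1* stands for the cytosolic machine, *Fkbp4* and *Dnaja1* for co-chaperones, and *Hspa1b* for the inducible Hsp70, whose near-identical neighbour *Hspa1a* has the same letters at chr17:34972233-34972280.
Hspe1 (chr1:55088039-55088096, plus strand): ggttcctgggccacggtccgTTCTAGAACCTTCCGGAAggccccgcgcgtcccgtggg
Hspd1 (chr1:55088039-55088096, minus strand): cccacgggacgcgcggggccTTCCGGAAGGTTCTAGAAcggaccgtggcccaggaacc
Hsph1 (chr5:149636342-149636389, minus strand): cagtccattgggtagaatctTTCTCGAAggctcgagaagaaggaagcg
Hspa1b (chr17:34959315-34959362, minus strand): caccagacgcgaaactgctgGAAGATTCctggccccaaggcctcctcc
Fkbp4 (chr6:128438780-128438827, minus strand): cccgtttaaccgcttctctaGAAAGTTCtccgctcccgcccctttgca
Dnaja1 (chr4:40722324-40722371, plus strand): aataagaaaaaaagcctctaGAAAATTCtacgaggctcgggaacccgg

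The block lies 89 to 72 bases before the start of *Hspe1* and 144 to 127 bases before that of *Hspd1*. Of 71 measured members of 5 chaperone lists (Hsp70, Hsp90, J-domain, mitochondrial, and small heat shock proteins with the heat shock factors), 59 had a promoter in the table, and 3 of these (5.08%; *Hspd1*, *Hspe1* and *Dnajb6*) held the 3-unit motif. Among all 27025 genes with a promoter 139 (0.514%) held it. The 2-unit motif was found in 15 of the 59 chaperone genes (25.4%) and in 3932 of all genes (14.5%). Of the chaperone genes described below, *Stip1*, *Cacybp*, *Dnajb1*, *Bag3*, *Chordc1* and *Ttc4* were among those with neither motif, and *Hsp90aa1* was not among the 59. A match is a description of the letters only.

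*Ppara*, the disrupted gene, read 169.9, 159 and 205 in the null WY+HS livers and 103, 167 and 155 in the null WY livers, against 296, 308 and 288 in wild-type WY+HS and 329, 274 and 289.6 in wild-type WY livers. It was lower in the null strain after WY+HS (log2 difference -0.75, limma adjusted p = 0.033, n = 3 mice per group) and after WY (-1.10, adjusted p = 0.0022). Whether its probe set lies in the removed part of the gene is not known, so PPARα targets were read as well. *Acot1*, a peroxisome proliferator-induced thioesterase, read 137, 197 and 190.5 in null WY+HS and 186, 174 and 177 in null WY livers, while the 6 wild-type livers on WY read between 2610.4 and 3113. No mouse of the null groups approached the wild-type level. The summed intensity of 11 hepatocyte markers was 42290 to 45630 in null WY+HS and 44770 to 46280 in null WY livers, and albumin lay near the top of the scale in all of them. Values are probe set intensities, quantile normalized across all 24 mice; nothing was read below a floor of 15.7, and fits used the log2 scale. The deposited array medians were 16.7, 26.9 and 18.2 in null WY+HS and 32.4, 20.95 and 22.5 in null WY livers, within a range of 15.2 to 40.5 over the series, and the 3 mice of each group correlated at 0.967 to 0.979. In the 6 livers 2079 of 8251 genes lay at the floor throughout. Precision rests on 3 mice per group.

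HS of null livers on the WY diet changed 3 of 12422 probe sets (0.0242%) and 3 of 8251 genes (0.0364%) at a limma adjusted p under 0.05, with *Atf6* higher (1 gene, 0.0121%) and *Reck* and *Col9a1* lower (2 genes, 0.0242%). Without adjustment 483 genes (5.85%) had a p under 0.05, of which 255 (3.09%) were higher and 228 (2.76%) lower. In 406 genes (4.92%) all null WY+HS mice lay above all null WY mice, and in 434 (5.26%) all lay below. The SD of the log2 change over genes above the floor was 0.37 in null livers on WY. It was 0.54 for HS in null livers on the control diet, 0.41 for HS in wild-type livers on WY and 0.34 for HS in wild-type livers on the control diet. Beyond 2-fold lay 2.46% of genes in null livers on WY, against 6.69%, 3.05% and 1.64% in those comparisons.

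*Atf6* encodes a transmembrane sensor of the unfolded protein response, which is cut and sent to the nucleus when proteins misfold in the endoplasmic reticulum. It read 51.7, 35.7 and 44.2 in null WY+HS livers and 19.6, 23.8 and 18.7 in null WY livers, a rise of 2.11-fold (log2 1.08, SE 0.17, limma adjusted p = 0.044, n = 3). All heated mice lay above all unheated ones. Within the null strain the null WY livers were the low group, since the 3 null HS livers read 35.1 to 52.4 and the 3 null control livers 36.5 to 43.9. Wild-type WY livers, at 20.7 to 24.9, were as low. The call was lost when any of mice 19, 21, 22 or 24 was left out (adjusted p up to 0.21). With a floor of 33.9, from the 5th percentile and above all null WY values, the log2 change was 0.35 (adjusted p = 0.79), and on arrays as deposited 0.79 (adjusted p = 0.71).

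*Col9a1*, a collagen chain known from cartilage, read 15.7, 58.9 and 15.7 in null WY+HS livers and 238, 215 and 120.3 in null WY livers, a fall (log2 -2.91, SE 0.42, limma adjusted p = 0.02). Mouse 23 alone of the heated mice lay above the floor, so the size of the fall depends on the floor, with a log2 change of -2.17 at a floor of 33.9 and -4.49 at 3.04, from the 20th percentile. The groups did not overlap. All 6 wild-type livers on WY lay at the floor, whereas livers on the control diet read 38.3 to 143 with or without heat and in both strains. The call was lost without mouse 22 (adjusted p = 0.083) or mouse 24 (0.055), and on arrays as deposited (0.18). *Reck*, a membrane-anchored inhibitor of matrix metalloproteinases, lay at the floor in all null WY+HS livers and read 22.6, 29.8 and 25.9 in null WY livers, so it was at least 1.65-fold lower after heat (log2 -0.72, SE 0.06, adjusted p = 1.7e-05). Of the other 18 livers 17 lay at the floor too, so the signal was read in the null WY mice and hardly elsewhere. The SE and the p of *Reck* rest largely on values tied at the floor and do not measure how mice vary below it. The floor of 33.9 put all 6 livers at the floor and ended the call, and with the floor of 3.04 it did not pass either (adjusted p = 0.16). A fit on only the arrays of the 2 groups passed none of *Atf6* (adjusted p = 0.35), *Col9a1* (0.54) and *Reck* (0.30).

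**Figure D1:**
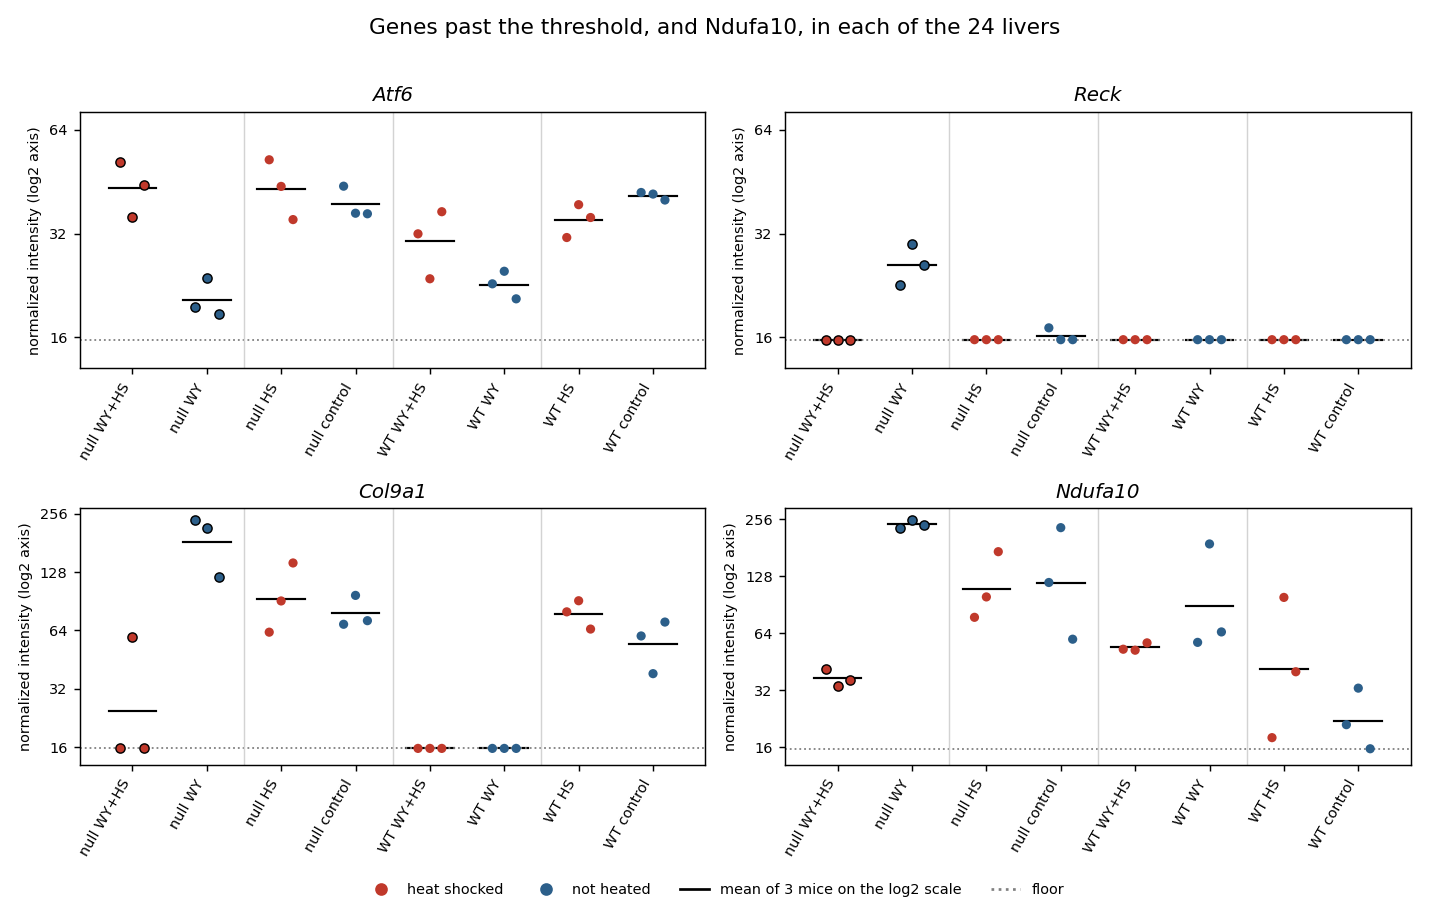
Normalized intensity of *Atf6*, *Reck*, *Col9a1* and *Ndufa10* (log2 axis) in each of the 24 livers, with heated livers in red, unheated ones in blue, the null livers on WY outlined, group means on the log2 scale as bars and the floor of 15.7 dotted. In all 4 panels the null WY livers stand apart from the null WY+HS livers, with *Atf6* at 18.7 to 23.8 in null WY and *Ndufa10* at 232 to 255.

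Chaperone genes gave large upward differences in null WY+HS livers, and none of them passed the adjusted threshold by limma. *Hsph1*, an Hsp110 that recharges Hsp70 with ATP, read 1231, 2056 and 1339 in null WY+HS livers and 205, 334 and 179 in null WY livers, a 6.52-fold difference (log2 2.71, SE 0.64, limma adjusted p = 0.25). *Hsp90aa1*, the inducible cytosolic Hsp90, read 2228, 2970.2 and 2325 in null WY+HS livers and 729.6, 1100.0 and 486 in null WY livers, 3.40-fold apart (log2 1.77, SE 0.36, adjusted p = 0.11). *Serpinh1*, the collagen chaperone Hsp47, read 91.5, 82.5 and 53.2 in null WY+HS livers and 17.6, 15.7 and 15.7 in null WY livers (log2 2.18, SE 0.39, adjusted p = 0.053). For each of the 3 genes every heated mouse lay above every unheated one.

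Both subunits of the mitochondrial chaperonin, which share the promoter shown above, were higher by similar factors. *Hspe1* read 1676, 2033 and 1728 in null WY+HS livers and 911, 1129 and 885 in null WY livers, 1.86-fold apart (log2 0.90, SE 0.18, adjusted p = 0.11 by limma). *Hspd1* read 2587, 3126 and 2751 in null WY+HS livers and 1676, 2096 and 1772 in null WY livers, 1.53-fold apart (log2 0.61, SE 0.10, adjusted p = 0.051). Mouse 23 was the highest of the heated and mouse 20 the highest of the unheated livers for both genes, and the groups did not overlap. A second, dimmer probe set for *Hspd1* ran the other way, with 47.3, 80.6 and 53.0 in null WY+HS livers and 95.5, 127 and 99.9 in null WY livers (log2 -0.86, adjusted p = 0.36). The mean of both *Hspd1* probe sets gave a log2 change of -0.12.

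Among the other co-chaperones, *Stip1* (Hop), which passes clients between Hsp70 and Hsp90, read 364, 438 and 436 in null WY+HS livers and 208, 231 and 159.6 in null WY livers (log2 1.06, SE 0.23, limma adjusted p = 0.16). *Dnaja1*, a J-domain partner of Hsp70, read 711, 1288 and 715 in null WY+HS and 553, 462 and 372 in null WY livers (log2 0.93, adjusted p = 0.62), and *Cacybp*, a calcyclin-binding partner of Hsp90, gave a log2 difference of 0.61. *Fkbp4*, an immunophilin of steroid receptor complexes, read 783, 689.5 and 806 in null WY+HS and 507, 676 and 493 in null WY livers (log2 0.46). All of these had every heated mouse above every unheated one, *Fkbp4* by the narrowest gap. The *Fkbp4* probe set may by its name share probes with related sequences. A second probe set for *Fkbp4* overlapped between the groups, with 441, 541 and 515 in null WY+HS and 458, 408 and 386.5 in null WY livers (log2 0.26).

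**Figure D2:**
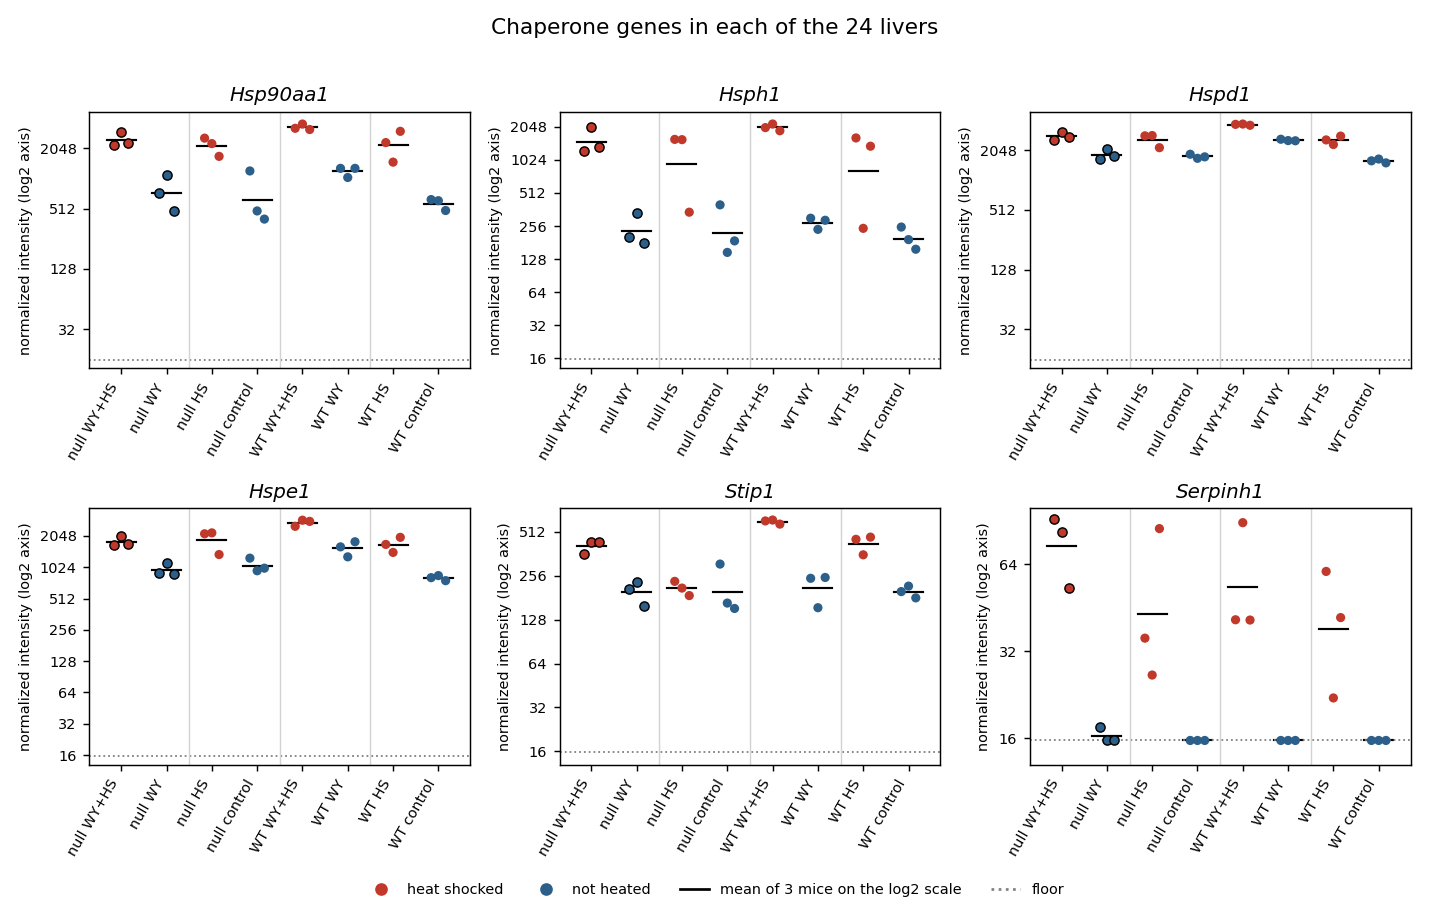
Normalized intensity (log2 axis) of 6 chaperone genes in each of the 24 livers by group, heated in red and unheated in blue, null livers on WY outlined, group means on the log2 scale as bars. The null WY+HS livers lie above the null WY livers in all 6 panels, for *Hsph1* at 1231 to 2056 against 179 to 334.

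Counted as families, 5 of 16 measured Hsp70 and exchange factor genes had an unadjusted p under 0.05 upward and none downward, with a median log2 difference of 0.19, against 3.09% of all genes upward and a median of 0 for all genes. On the arrays as deposited, without scaling, the median of the 6172 genes above the floor was -0.19, so small family medians depend on the scaling. Hsp90 and its co-chaperones were split, with 5 of 16 upward and 3 downward (median 0.05). The downward members were *Ttc4* (log2 -0.61), *Chordc1* (-0.54) and *Nudc* (-0.89), 3 co-chaperones that bind Hsp90, and in each of them all heated mice lay below all unheated ones. Of 11 mitochondrial matrix chaperones 3 were upward, the chaperonin pair and *Clpp*, a protease subunit (log2 0.37), and none downward (median 0.15). J-domain proteins gave 1 of 20 upward and 1 downward (median 0.03), and none of 14 subunits of the TCP-1 chaperonin and prefoldin had a p under 0.05 (median -0.02). Of 9 small heat shock proteins and heat shock factors, 1 was upward, *Hsbp1*, which binds HSF1 (log2 1.11), and none downward (median 0.11), while *Hspb1* lay at the floor in all 6 livers. None of these members passed the adjusted threshold. Of 27 measured genes that the study's text names with HS, 10 had an unadjusted p under 0.05 upward and none downward, and 11 had all heated mice above all unheated ones, against 4.92% of all genes (median log2 0.51). That list was drawn up on these samples by the study and is not independent evidence of its direction.

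**Figure D3:**
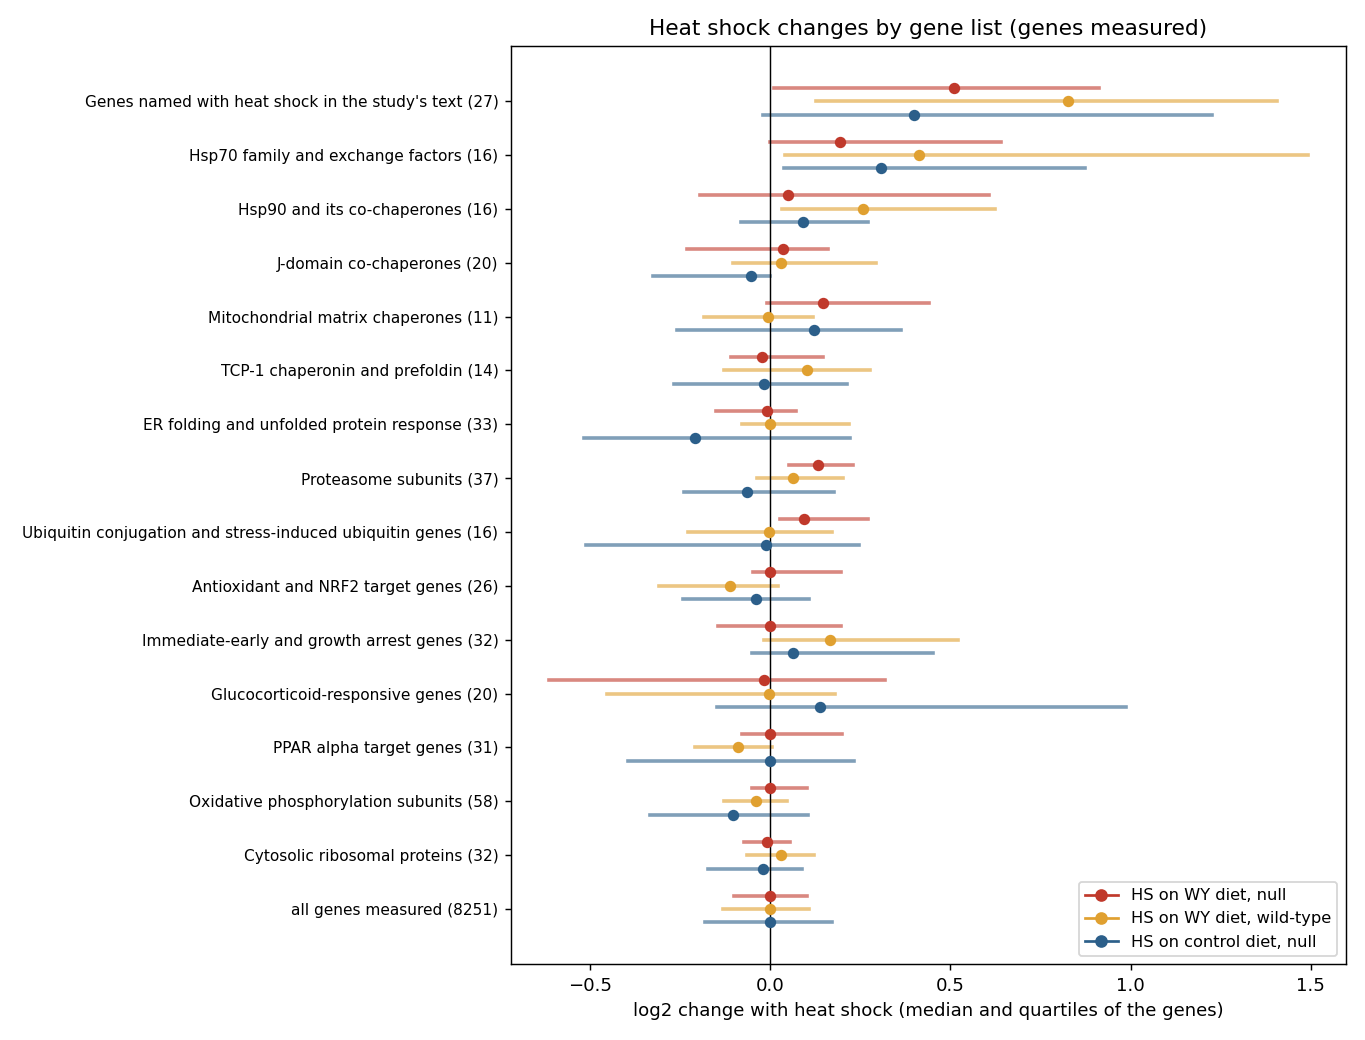
Median (point) and quartiles (bar) of the log2 change with HS over the measured genes of each list, for null livers on WY (red), wild-type livers on WY (orange) and null livers on the control diet (blue), with the number of genes in brackets. In null livers on WY the genes named with HS have a median of 0.51 and the Hsp70 family 0.19, while all 8251 genes have a median of 0.

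The strictly inducible genes were highest in mouse 23. *Hspa1b*, inducible Hsp70, read 91.0, 693 and 30.9 in null WY+HS livers and 46.7, 32.7 and 30.7 in null WY livers (log2 1.79, SE 0.83, limma adjusted p = 0.9). *Hspa1a* read 32.2, 283 and 15.7 in null WY+HS livers, with mouse 24 and all null WY livers at the floor (3.32-fold apart as fitted, log2 1.73, limma adjusted p = 0.85). Mouse 22 also lay above every unheated mouse for both genes. These copies are near-identical and reads of one may include the other. *Dnajb1*, the J-domain protein that feeds Hsp70, read 40.4, 116 and 39.0 in null WY+HS livers and 43.5, 27.6 and 42.1 in null WY livers. *Bag3*, an exchange factor of Hsp70 in stress-induced autophagy, read 102, 255 and 65.8 in null WY+HS and 115, 100.4 and 113 in null WY livers. *Atf3*, a stress-induced transcription factor whose probe set may by its name share probes with related sequences, read 36.9, 99.9 and 32.7 in null WY+HS and 40.1, 37.4 and 37.8 in null WY livers. In all 5 genes mouse 23 was the highest of the 6 livers, mouse 24 lay within or below the unheated range, and the groups overlapped. Leaving out mouse 23 gave a log2 change of 0.56 for *Hspa1b*, 0.52 for *Hspa1a*, 0.10 for *Dnajb1* (0.62 with it), -0.41 for *Bag3* and -0.14 for *Atf3*. *Hspa8*, the constitutive Hsp70, read 551, 778 and 504 in null WY+HS and 724, 545 and 623 in null WY livers (log2 -0.06, 95% interval -0.48 to 0.35).

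**Figure D4:**
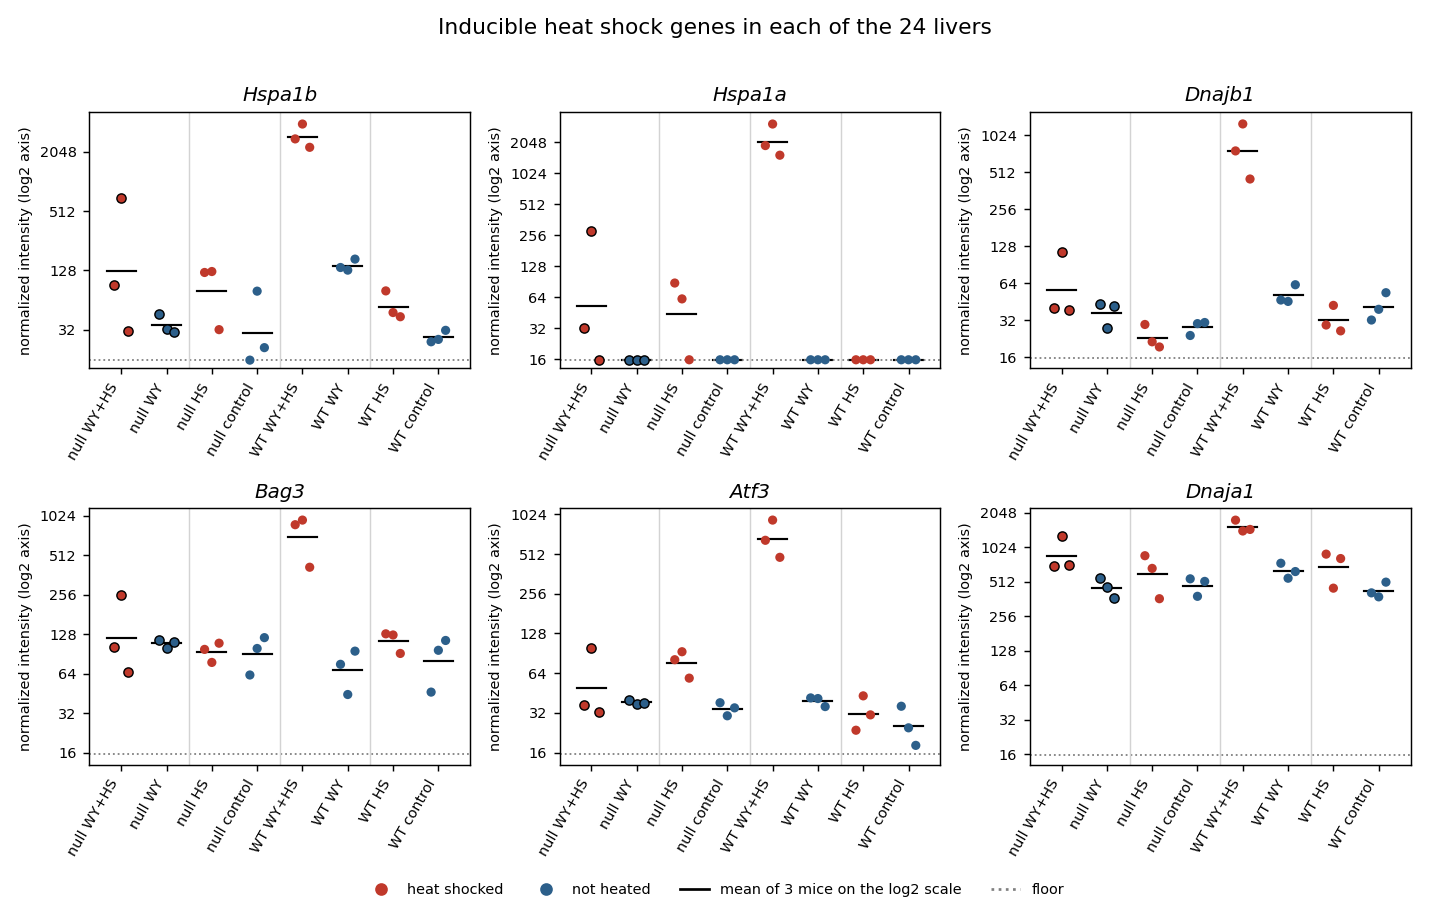
Normalized intensity (log2 axis) of 6 inducible genes in each of the 24 livers, heated in red and unheated in blue, null livers on WY outlined, group means on the log2 scale as bars. Mouse 23, the middle null WY+HS point, is the highest of its group in every panel (693 for *Hspa1b*), and the wild-type WY+HS livers lie at 2271 to 3912 for that gene.

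The endoplasmic reticulum list had *Atf6* as its only called member among 33 (median log2 -0.01). With an unadjusted p under 0.05 *Ero1a*, an oxidase of disulfide formation (log2 -0.47), *Dnajc3*, an inhibitor of the kinase PERK (-0.39), and *Ppib*, a prolyl isomerase (-0.15), were lower, 3 of 33 beside 2.76% of all genes. Other probe sets of *Dnajc3* gave log2 changes of 0.16 and -0.05, and a further one lay at the floor, so its fall was not shared by them. Of 37 proteasome subunits 7 had an unadjusted p under 0.05 upward and none downward, beside 3.09% and 2.76% of all genes. In 11 all heated mice lay above all unheated ones, beside 4.92% of all genes, and in 1 all lay below, beside 5.26%. None passed, and their median of 0.13 is smaller than the shift of -0.19 that leaving out the scaling makes. They included *Psmd7* of the regulatory lid (log2 0.20, SE 0.07), whose values were 417 to 458 in null WY+HS and 370 to 379 in null WY livers. The subunits of the interferon-induced immunoproteasome, *Psmb9*, *Psmb8* and *Psmb10*, had log2 differences of 1.44, 0.60 and 0.58, with no overlap between the groups. *Psmb9* read 108, 80.4 and 78.3 in null WY+HS livers and 36.0, 59.9 and 15.7 in null WY livers. The adjusted p of these 4 subunits lay between 0.55 and 0.68 by limma.

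Of 32 immediate-early and growth arrest genes, *Egr1* and *Jun* had an unadjusted p under 0.05 upward and *Dusp1* downward, beside 3.09% and 2.76% of all genes. *Egr1*, a zinc finger factor induced within minutes of many stimuli, read 42.3, 49.4 and 55.8 in null WY+HS livers and lay at the floor in all null WY livers, at least 3.10-fold apart (log2 1.63, limma adjusted p = 0.29). *Jun*, a subunit of AP-1, read 39.6, 60.1 and 51.8 in null WY+HS and 20.7, 21.9 and 16.6 in null WY livers (log2 1.34, adjusted p = 0.75). Of 20 glucocorticoid-responsive genes 3 had an unadjusted p under 0.05 downward and none upward, beside 2.76% and 3.09% of all genes, with 7 above 0, 10 below and a median of -0.02. *Igfbp1*, which binds IGF-I, read 453, 156 and 384 in null WY+HS livers and 767, 1041 and 1151 in null WY livers (log2 -1.70, adjusted p = 0.72). *Tat*, tyrosine aminotransferase, gave -0.61 and *Dusp1*, a MAP kinase phosphatase, -0.64, with no overlap between the groups in any of the 3.

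The PPARα target list was mixed in these receptor-less livers, with 3 of 31 genes at an unadjusted p under 0.05 upward and 4 downward (median log2 0), beside 3.09% and 2.76% of all genes. *Cyp4a10*, a fatty acid ω-hydroxylase, lay at the floor in all null WY+HS livers and read 205, 105 and 15.7 in null WY livers. On the control diet it read 20.5, 24.8 and 15.7 in null HS and 28.9, 15.7 and 15.7 in null control livers, so mice 19 and 20 stood out. Its probe set may by its name share probes with related sequences. The *Cyp4a10* value of mouse 21 is thus at the floor too, and the fall is given as fitted (4.42-fold, log2 -2.14, limma adjusted p = 0.48). *Cyp4a14*, its neighbour, read 68.3, 41.8 and 29.98 in null WY+HS and 329, 240.6 and 45.8 in null WY livers (log2 -1.80, adjusted p = 0.74). In both, mice 19 and 20 were high and mouse 21 lay near or within the heated range, and all null values were far below the 3057 to 4366 of *Cyp4a10* in wild-type livers on WY. *Me1*, malic enzyme (log2 1.03), and *Plin2*, a lipid droplet coat protein (log2 0.52), were higher with no overlap, *Plin2* at 1508 to 1676 in null WY+HS and 954 to 1221 in null WY livers. Oxidative phosphorylation genes had a median of 0.00 over 58 members, with 1 upward and 2 downward at an unadjusted p under 0.05, beside 3.09% and 2.76% of all genes. *Ndufa10*, a complex I subunit, gave the second largest downward difference described here, reading 41.6, 33.8 and 36.2 in null WY+HS livers and 232, 255 and 239 in null WY livers (log2 -2.70, adjusted p = 0.14). The 3 null WY mice agree closely, but elsewhere the gene varied within groups, at 119, 231.5 and 59.6 in null control livers. Translation genes included *Eif2b1*, of the eIF2 exchange factor (log2 0.73), *Eif2s2*, an eIF2 subunit (0.87), and *Mars1*, methionyl-tRNA synthetase (0.55), all 3 with no overlap, the only 3 of 43 with an unadjusted p under 0.05, beside 3.09% of all genes upward.

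Besides these lists, the genes with the smallest unadjusted p among those with no overlap and a higher group mean at least 2-fold above the floor were given by rule, and none passed. *Cnih4*, a cornichon of early secretory transport (log2 -0.27, adjusted p = 0.051 by limma), lay nearer the floor and fell outside that rule. Downward, *Pdcl3*, a phosducin-like co-chaperone of the TCP-1 chaperonin, read 57.6, 53.3 and 52.8 in null WY+HS livers and 143, 138 and 138 in null WY livers (log2 -1.35, limma adjusted p = 0.11). *Arfip2*, an arfaptin of the Golgi, gave -1.11 and *Reg3a*, a secreted C-type lectin, -1.17 (adjusted p = 0.051 each), *Igsf8*, a partner of tetraspanins, -0.67, *Tspan33*, a tetraspanin, -0.92, *Pfkfb3*, which makes fructose-2,6-bisphosphate, -1.03 and *Mettl7a1* -0.45. Upward were *Blnk*, a B cell adaptor (log2 1.53), *Mrps33* of the mitochondrial ribosome (1.13), *Arf5*, a small GTPase (0.88), and *Ktn1*, kinectin (0.81). *Blnk* read 147, 67.6 and 107 in null WY+HS and 29.9, 36.8 and 39.9 in null WY livers, and its second probe set gave 1.18.

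Markers of other cell types that the tissue may hold were summed in each mouse. In bulk liver, fewer cells of a type and less RNA per cell cannot be told apart. Summed Kupffer cell and macrophage markers were 1044 to 1669 in null WY+HS and 945 to 1807 in null WY livers, and stellate cell and fibroblast markers 1942 to 1978 in null WY+HS and 1677 to 2266 in null WY livers. Adgre1 of the first list and Acta2 and Pdgfrb of the second lay at the floor in all 6 livers. The sum of 10 endothelial markers was 917 to 1006 in null WY+HS and 744 to 946 in null WY livers. Of the 10, 2 had an unadjusted p under 0.05 upward and none downward, beside 3.09% and 2.76% of all genes. They were *Kdr* (log2 0.77, limma adjusted p = 0.74) and *Tie1* (0.63, adjusted p = 0.86), receptors of endothelial growth factors. The sum of 12 lymphocyte markers was 811 to 981 in null WY+HS and 1058 to 1358 in null WY livers without overlap. *Cd4* contributed to it with 27.6, 36.2 and 15.7 in null WY+HS livers and 156, 129 and 115 in null WY livers (log2 -2.40, limma adjusted p = 0.44), while Cd3d, Cd3e, Cd3g, Cd8a and Cd8b1 lay at the floor in all 6. Their part in the values of *Blnk* and the immunoproteasome genes was not tested. All 5 measured cholangiocyte markers lay at the floor in the 6 livers.

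The heat response on WY was next compared between the strains, by the difference of null (WY+HS minus WY) and wild-type (WY+HS minus WY) changes, which share no mice. HS changed 53 probe sets (0.427%) in wild-type livers on WY, and the difference between strains passed for 13 probe sets (0.105%), which stand for 8 genes (0.097%). *Atf3* was one of them, with the null values given above against 650.4, 925 and 483 in wild-type WY+HS and 41.6, 41.1 and 35.7 in wild-type WY livers (difference in log2 change -3.71, SE 0.51, limma adjusted p = 0.0028). *Dnajb1* read 764, 1266 and 451 in wild-type WY+HS and 46.7, 45.5 and 62.2 in wild-type WY livers, so its change was smaller in null livers by 3.28 on the log2 scale (SE 0.56, adjusted p = 0.03). Even mouse 23, the null mouse with the highest values, lay below all 3 wild-type WY+HS mice for both genes. Wild-type livers on the control diet had no such rise with HS (log2 0.32 for *Atf3* and -0.35 for *Dnajb1*, neither passing). There *Atf3* read 23.6, 43.1 and 30.9 in wild-type HS and 35.9, 24.7 and 18.2 in wild-type control livers. *Dnajb1* read 29.3, 42.3 and 26.2 in wild-type HS and 32.1, 39.3 and 53.6 in wild-type control livers.

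*Hspa1a* read 1899, 3076 and 1531 in wild-type WY+HS livers against the floor in wild-type WY livers, and the strains differed by -5.31 (SE 1.04), a size that the floor sets in part and which did not pass (limma adjusted p = 0.074), nor did *Bag3* (-3.23, adjusted p = 0.089) or *Hspa1b* (-2.55, adjusted p = 0.99). For other chaperones the strains differed by less: *Hsph1* differed by -0.17 (SE 0.90), *Hsp90aa1* by 0.30 (SE 0.51), *Hspe1* by 0.07 (SE 0.25) and *Hspd1* by 0.09 (SE 0.15). With these standard errors the 2 strains are not shown to respond alike. *Hspd1* itself was lower in null than in wild-type livers after WY+HS (log2 -0.40, adjusted p = 0.016) and after WY (-0.49, adjusted p = 0.0037). The remaining genes whose response differed were *Rfxank*, of the complex that drives MHC class II genes (2.72), *Mdfic*, a MyoD family inhibitor domain protein (1.41), and *Tenm3*, a teneurin (0.63), which fell with HS in wild-type livers, *Prpf31*, a splicing factor (-1.93), which rose there, *Reg3a* (-1.66) and *Reck* (-0.72). *Tenm3* and *Prpf31* lay at the floor in all null livers on WY, and *Rfxank* in all but mouse 24 (25.9). No null response could thus be read for *Tenm3* and *Prpf31*, and the sizes and p of these differences depend on the floor. Of the 8, *Reck* passed in the null comparison and 6 passed in the wild-type one. The 8 were chosen by the difference between these changes, so such counts follow in part from the choice. In the 26 genes raised by HS in wild-type livers on WY, 10 had an unadjusted p under 0.05 upward in null livers and none downward, 8 had no overlap upward, and the median log2 change was 0.29, beside 3.09%, 2.76%, 4.92% and a median of 0 for all genes.

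The heat response of null livers was then compared between the diets. In null livers HS changed 878 probe sets (7.07%) on the control diet, and the difference between diets (change on WY minus change on the control diet) passed for 229 probe sets (1.84%), or 166 genes (2.01%), 107 (1.3%) higher and 59 (0.715%) lower. Of these 166 genes 153 passed for HS on the control diet and 2, *Reck* and *Col9a1*, for HS on WY. The median size of their log2 change was 0.15 on WY and 0.94 on the control diet. These genes were chosen by the difference between the changes, so a gap in these counts and medians follows in part from the choice. Among the genes that rose with HS on the control diet, *S100a6*, a calcium-binding protein, read 16.9, 15.7 and 15.7 in null WY+HS livers and lay at the floor in null WY livers, against 105, 112 and 112 in null HS and 15.7, 19.6 and 25.1 in null control livers (difference -2.44, SE 0.14, limma adjusted p = 2.1e-08). *Ccr2*, a monocyte chemokine receptor, and *Pglyrp1*, a neutrophil granule protein, lay at the floor in all 6 null livers on WY and above it in all null HS livers (differences -1.50 and -1.35, adjusted p = 6.1e-11 each). *Tff2*, a trefoil peptide, did so at 232, 186 and 869.5 in null HS livers (-4.41, adjusted p = 0.00011). Since groups lay at the floor, the sizes of these differences and their p depend on it.

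Other genes fell with HS on the control diet and had a higher response on WY by the test of the difference. *Gsr*, glutathione reductase, read 214, 225 and 229.7 in null WY+HS and 190.5, 180.3 and 205 in null WY livers, against 117, 118 and 119 in null HS and 201, 189.7 and 180.4 in null control livers (difference in log2 change 0.90, SE 0.11, limma adjusted p = 0.00023). *Igfals*, which holds IGF-I in the plasma, read 183, 225 and 202 in null WY+HS and 261, 326 and 236 in null WY livers, against 15.7, 21.0 and 15.7 in null HS and 362, 251 and 141 in null control livers (difference 3.33, adjusted p = 0.00078). *Ppib* differed by 0.45 (adjusted p = 0.018), and *Eif2b1*, which did not pass on either diet alone, by 1.18 (adjusted p = 0.015). Oxidative phosphorylation genes, of which 14 of 58 fell on the control diet (median -0.10) beside 4.48% of all genes, had 6 members with a higher response on WY and none with a lower one, beside 1.3% and 0.715% of all genes. *Cd4* rose with HS on the control diet, at 211, 267 and 219 in null HS and 82.3, 41.0 and 22.7 in null control livers (difference -4.84, adjusted p = 0.018). Summed stellate cell and fibroblast markers, given above for WY, were 2338 to 2965 in null HS and 1649 to 1993 in null control livers. Of these markers 4 of 12 were higher by the test on the control diet, beside 3.44% of all genes. For the difference between diets these markers had a median of -0.63, and 6 of 12 were lower at an unadjusted p under 0.05 beside 6.63% of all genes. Their part in the differences between diets was not tested.

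For the cytosolic and mitochondrial chaperones no difference between diets was detected. In the endoplasmic reticulum list 2 of 33 genes passed as higher on WY, beside 1.3% of all genes. They were *Ppib* and *Pdia6*, a protein disulfide isomerase (difference 2.08, limma adjusted p = 0.01). *Hsp90aa1* had a log2 change of 1.77 on WY and 1.80 on the control diet (difference -0.04, 95% interval -1.11 to 1.03), *Hspd1* of 0.61 and 0.56 (interval -0.26 to 0.36) and *Hspe1* of 0.90 and 0.81 (interval -0.44 to 0.63). *Hsph1* had a difference of 0.62 with an interval of -1.29 to 2.53, and null HS mouse 18 read 342 beside 1572 and 1563 in mice 16 and 17. No member of the Hsp70, Hsp90, J-domain or mitochondrial chaperone lists passed the test of the difference between diets by limma. At an unadjusted p under 0.05, 1 of 16 Hsp70 and 1 of 16 Hsp90 genes were higher on WY and 1 of each lower, with 2 of 20 J-domain and 3 of 11 mitochondrial genes higher and 1 of each lower, beside 8.22% of all genes higher and 6.63% lower. *Stip1* gave 1.06 on WY and 0.08 on the control diet, with a difference of 0.98 (adjusted p = 0.16), and *St13*, the Hsp70-interacting protein Hip, 0.78 and -0.86 (adjusted p = 0.12).

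A set of genes moved by heat was then taken from the 3 HS comparisons of the other 18 livers. The 6 livers described here did not enter those changes. They did enter the shared estimate of the spread behind the p, so the choice is not fully independent of them. The mean heat change of the 3 comparisons passed for 244 probe sets, which stand for 93 genes (1.13%) raised and 100 (1.21%) lowered. In null livers on WY 27 of the 93 raised genes had an unadjusted p under 0.05 upward and none downward, beside 3.09% and 2.76% of all genes. All heated mice lay above all unheated ones in 29, against 4.92% of all genes, and below them in none. The median was 0.17 (0 on arrays as deposited, 0.30 with the floor at the 20th percentile), and none of the 93 passed the adjusted threshold. At the top stood *Hsph1*, *Serpinh1*, *Hspa1b*, *Hsp90aa1* and *Hspa1a*, followed by *Rbm14*, an RNA-binding coactivator whose probe set may also share probes (log2 1.56), and *Saa3*, an acute phase protein (1.53). *Chka*, choline kinase, gave 0.92 and *Col4a1*, a basement membrane collagen, 1.03. The 100 lowered genes had 6 upward and 5 downward at an unadjusted p under 0.05 and a median of -0.02. Of the 93 raised genes 64 rose in null livers on the control diet (3.44% of all genes) and 15 in wild-type livers on WY (0.315%). In wild-type livers on the control diet 4 of the 93 rose, beside 4 of all 8251 genes. Of the 100 lowered genes 79 fell in null livers on the control diet (4.48% of all genes), with a median of -0.65. In wild-type livers 5 of the 100 fell on WY (14 of all 8251), with a median of -0.19, and none on the control diet (-0.17). All these livers helped to choose the lists.

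**Figure D5:**
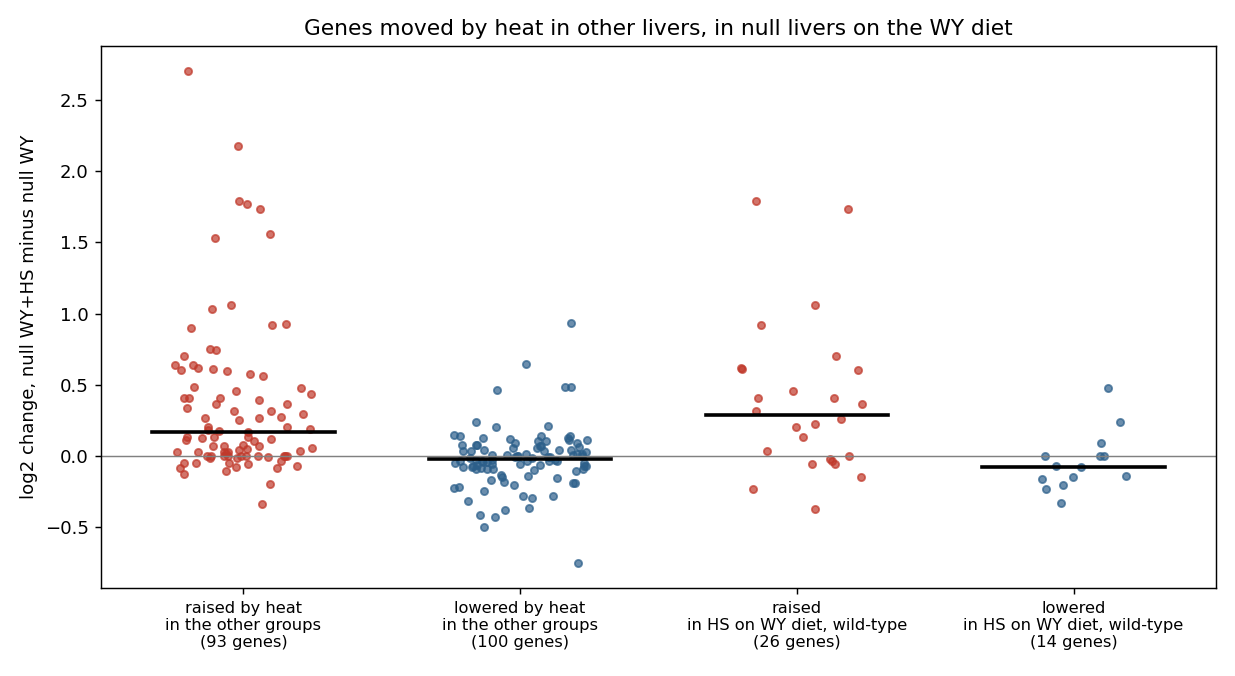
Log2 change in null livers on WY (WY+HS minus WY) of genes that heat raised (red) or lowered (blue) in the other groups, and in wild-type livers on WY alone, 1 point per gene with the median as a bar. The raised sets have medians of 0.17 (93 genes) and 0.29 (26 genes), the lowered sets -0.02 (100 genes) and -0.07 (14 genes). Without scaling of the arrays the median of the 93 raised genes is 0.

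Across 5801 probe sets with a mean intensity above 2 times the floor, the heat changes of null livers on WY correlated with those of null livers on the control diet at r = 0.044, of wild-type livers on WY at r = 0.18 and of wild-type livers on the control diet at r = 0.074. These comparisons share no mice. The points are probe sets read on the same arrays and are no independent replicates.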

How the data were processed

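Liver RNA of 24 mice was hybridised by the authors to U74Av2 arrays, 1 mouse per array. The deposited values are linear probe set intensities, many at or below 0 (24.1% of 298128), per the file headers without a stated scale. By the methods the arrays were read with Affymetrix GeneChip Operating Software and analysed in Rosetta Resolver, while no source used here gives the probe set summary or scaling behind the deposited values. Here all 12422 probe sets with values (66 AFFX controls had none) were brought to one distribution by quantile normalization, and values under 15.7 (the size of the 10th percentile) were raised to that floor before log2, which left 42.9% of values at the floor. A fold between a group wholly at the floor and one wholly above it is therefore a lower bound, written "at least". Other folds, and log2 changes or differences that involve values at the floor, are printed as fitted. Their size depends on the floor, and so do the spread and the p where many values lie at it.

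A model with 8 group means was fitted with limma 3.58.1 (R 4.3.3; lmFit and eBayes, 16 residual degrees of freedom), with Benjamini-Hochberg adjustment over all probe sets. Called means an adjusted p under 0.05. Differences between diets and strains were contrasts of the same fit. The probe set with the highest mean stood for a gene (8251 genes, from 10833 probe sets with 1 symbol; 396 had several and 1193 none). The methods' one-way ANOVA with Scheffe's test was run as an alternative. There the Benjamini-Hochberg adjustment was applied to the test over all groups, and Scheffe's p of a comparison was not adjusted over probe sets. Its counts are thus not at the threshold of the limma calls.

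Of genes past the threshold, up to 15 were named per direction, and directions with fewer were filled to 10 by the smallest unadjusted p among genes without overlap whose higher group mean was at least 2-fold above the floor. Up to 6 passing members of each list, otherwise the 3 with the smallest p, the genes of the study's text, 8 from each difference and 10 per direction of the heat-moved genes could also be named. Outside that rule, *Chordc1*, *Ttc4*, *Nudc*, *Ero1a*, *Ppib*, *St13*, *Hspa8*, *Psmb9*, *Cyp4a14*, *Rbm14*, *Col4a1*, *Cnih4* and *Pdia6* were named after their values were seen. The members and the 42 gene lists were chosen with earlier results of these data known. The fit was tested on simulated normal data to which no floor was applied. That test does not cover calls that rest on values tied at the floor. The number of arrays limits the precision. Alternatives were other scalings, floors, filters, moderation, array weights, the groups' own arrays only, and leaving out each mouse.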

Additional observations from a re-analysis of the deposited data

Results flagged for a closer look

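Each result here was picked out because the heat response of null livers on WY differed, by a test of the difference itself (limma, adjusted over all probe sets, 3 mice per group), from that on the control diet or from that of wild-type livers on WY. No explanation was weighed.

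Between the diets 229 probe sets differed. *Reck* (log2 difference -0.68, adjusted p = 0.00027) and *Col9a1* (-3.16, 0.013) also passed for HS on WY alone. Of the 8 genes with the smallest p, *Ccr2* (-1.50), *Pglyrp1* (-1.35), *S100a6* (-2.44), *Sh3bp1* (-2.23), *Crip1* (-1.14), *Ltbp2* (-0.88) and *S100a9* (-1.47) were lower in response on WY. They and *Tff2* (-4.41) lay at or near the floor in null livers on WY, so the sizes of these differences and their p depend on the floor. The remaining gene of the 8, *Pycrl* (1.81), was higher in response and read 58.8, 52.9 and 71.3 in null WY+HS and 43.9, 44.2 and 43.7 in null WY livers, against the floor in all null HS livers and 52.4, 36.8 and 33.4 in null control livers. *Gsr* (0.90), *Igfals* (3.33), *Eif2b1* (1.18) and *Ppib* (0.45) were higher in response on WY, and *Cd4* (-4.84) and *Igsf8* (-0.88) lower. Summed lymphocyte markers were 811 to 981 in null WY+HS and 1058 to 1358 in null WY livers, against 1653 to 1899 in null HS and 964 to 1289 in null control livers. Summed neutrophil markers were 309 to 372 in null WY+HS and 344 to 542 in null WY livers, against 594 to 686 in null HS and 298 to 460 in null control livers. Summed stellate cell and fibroblast markers were 1942 to 1978 in null WY+HS and 1677 to 2266 in null WY livers, against 2338 to 2965 in null HS and 1649 to 1993 in null control livers. Their part in these differences was not tested.

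Between the strains 13 probe sets differed. *Rfxank* (2.72, adjusted p = 1.3e-06), *Mdfic* (1.41) and *Tenm3* (0.63) were higher in response in null livers, and *Prpf31* (-1.93), *Reck* (-0.72), *Atf3* (-3.71), *Dnajb1* (-3.28) and *Reg3a* (-1.66) lower. *Tenm3* and *Prpf31* lay at the floor in all null livers on WY, and *Rfxank* in all but mouse 24 (25.9). No null response could thus be read for *Tenm3* and *Prpf31*, and the sizes and p of these differences depend on the floor. *Mdfic* read 64.0, 64.9 and 53.0 in null WY+HS and 48.2, 36.8 and 45.7 in null WY livers, against 96.2, 134 and 115 in wild-type WY+HS and 230.0, 200.5 and 221 in wild-type WY livers.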

How the results depend on the processing

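No paired analysis was possible because no mouse was sampled more than once, and mouse numbers run on from group to group. Alternatives for the genes of the difference tests and for the heat-moved medians were added after seeing the data. The cause of these shifts was not tested.

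The 3 probe sets called for HS in null livers on WY became 1 on arrays as deposited, 1 on an asinh scale and 1 at an adjusted p under 0.01. They became 8 with the floor at the 5th or the 20th percentile, 8 with a filter on the mean, 9 with probe sets above the floor on at least 3 arrays, 9 with the groups' own arrays only, 35 with array weights, 26 by the methods' ANOVA (15 higher, 11 lower, all 3 included, with *Hspd1*, *Serpinh1*, *Hspe1*, *Hsp90aa1* and *Stip1*), 37 by an ANOVA over the null groups and 7 with the mean over a gene's probe sets. In both ANOVA settings only the test over all groups was adjusted over probe sets, so their counts are at a threshold unlike that of limma. Leaving out each mouse gave 2 (without mouse 22) to 12 (without mouse 19), with 9 without mouse 20 and 8 without mouse 23.

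The difference between diets (229) gave 347 probe sets with a common median, 40 as deposited, 124 by asinh, 607 with array weights, 54 at 0.01 and 37 with own arrays only, and 118 (without mouse 20) to 547 (without null HS mouse 18) with a mouse left out, with 131, 134, 143 and 121 without mice 14, 17, 21 and 24. The difference between strains (13) gave 25 as deposited, 20 with the floor at the 5th percentile, 6 by asinh, 31 with weights, 7 with the filter on the mean and 8 at 0.01, and 8 (without mouse 21 or 22) to 27 (without wild-type mouse 10) with a mouse left out, with 26 without mouse 12.

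HS in null livers on the control diet (878) gave 97 as deposited, 354 at 0.01, 59 with own arrays, 415 by the methods' ANOVA and 282 by the ANOVA over null groups, and 412 (without mouse 14) to 1160 with a mouse left out, with 542, 454 and 416 without mice 13, 16 and 17. HS in wild-type livers on WY (53) gave 1431 as deposited, 28 by asinh, 166 with weights, 23 at 0.01 and 11 with own arrays, and 41 to 89 (without mouse 12) with a mouse left out. The genes moved in the other groups (244) gave 155 with a common median, 50 as deposited, 126 by asinh, 489 with weights, 78 at 0.01, 86 with a fold of at least 1.5 and 150 with own arrays, and 130 (without mouse 14) to 531 (without mouse 18) with a mouse left out, with 160, 161 and 158 without mice 2, 7 and 17.

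The median of the raised genes in null livers on WY (0.17) was 0 as deposited and 0.2972 with the floor at the 20th percentile, and 0.1438 to 0.2112 with a mouse left out. That of the lowered genes (-0.02) was 0.0683 with a common median and -0.2132 as deposited, and -0.0464 to 0.0148 with a mouse left out. The sign turned for *Ppib* (0.0158) and *Hspa8* (0.0688) with a common median, for *Bag3* (-0.156) and *Gsr* (-7e-04) as deposited, for *Bag3* (-0.1483) with weights and for *Hspd1* (-0.1246) with the mean over its probe sets. With a mouse left out it turned for *Hspa8* (range -0.2503 to 0.0634, with 0.0413 without mouse 19 and the highest without mouse 24), and, without mouse 23, for *Bag3* (-0.4138, range up to 0.5636) and *Atf3* (-0.1447, range up to 0.6604). The difference between strains in *Dnajb1* passed in 15 of 24 settings, the main one included. Its limma adjusted p was 0.196 on arrays as deposited, up to 0.29 in another setting and up to 0.12 with a mouse left out. The difference in *Reg3a* passed in 13 of 24 settings and that in *Tenm3* in 11 of 24. For *Rfxank* and *Prpf31* the limma adjusted p reached 0.79 and 0.825 in other settings. That in *Atf3* did not pass with own arrays only (0.099).

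Signal over background limits these values, since 2996 probe sets lay at the floor on all 24 arrays.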
